A study of Mus musculus with 24 samples.

Results

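The genes Uap1l1, Mpp2, Scnn1b, Spon2, Camta1 and Fam84a were followed across the day in pancreatic alpha cells and beta cells of the mouse. They are 6 of the 14027 genes in the deposited table, found there by their symbols, and none of them is a core clock gene. They were selected on the size of their daily swing in these libraries, some of them in 1 cell type only, so the swings and peak times given here describe what selected them and carry no test. The mean level in each cell type was not used to select them, and it was tested.

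The alpha cells, the source of glucagon, and the beta cells, the source of insulin, came from islets of a strain that the labels call triple reporter mouse, with no allele, age, sex or way of separating the cells named. Islets were isolated at ZT0, ZT4, ZT8, ZT12, ZT16 and ZT20, where ZT (zeitgeber time) counts hours of the lighting cycle. Each cell type had 2 libraries of total RNA at each time, which gave 12 alpha and 12 beta libraries, and no treated or mutant group. Whether the 2 libraries of a time and cell type stem from separate animals is not stated in the labels, so their spread may be technical. The p-values reflect the spread of the libraries around each fit. In the level test a course that differs by cell type counts as spread, and in the rhythm test any departure from a cosine does.

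Library totals lay between 4944982 and 12364190 reads, the lowest in replicate 2 of the ZT12 alpha cells. The hormone genes went the way of the labels, but a little of the other cell type's hormone RNA was present in every library. The insulin genes in alpha libraries reached 0.158% to 2.02% of their mean beta level, highest in replicate 1 of ZT4. Gcg, the glucagon gene, reached 0.0293% to 1.52% of its mean alpha level in beta libraries, highest again in replicate 1 of ZT4 and at most 0.297% in the others. All 4 delta cell markers were measured, with summed levels of 2513 to 5178 RPKM in alpha libraries and 645 to 1421 RPKM in beta libraries. The 3 markers of PP cells summed to 27826 to 59540 RPKM in alpha libraries and 359 to 1730 RPKM in beta libraries. The part of these cells in the levels of the 6 genes was not tested. A panel of 13 immediate early genes, which respond to handling, summed to 2960 RPKM in replicate 2 of the ZT8 alpha cells. Any other alpha library had at most 1680 RPKM. In beta cells replicate 2 of ZT8 was highest too, at 1192.5 RPKM against at most 832.4 RPKM in any other beta library.

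In a circadian system, the factors CLOCK and BMAL1 bind E-boxes and drive their own repressors, the Per and Cry genes. The REV-ERB and ROR receptors act on ROR elements (RORE), and DBP, TEF, HLF and NFIL3 act on D-boxes, which together time further genes to different hours of the day. The 6 genes belong to unrelated families. UAP1L1 is a paralogue of UAP1, the enzyme that makes UDP-N-acetylglucosamine, the sugar donor of protein glycosylation. MPP2 is a membrane-associated guanylate kinase (MAGUK) scaffold, SCNN1B the beta subunit of the epithelial sodium channel ENaC, and SPON2 (mindin) a secreted matrix protein that binds integrins. CAMTA1 is a calmodulin-binding transcription activator, and FAM84A, now named LRATD1, is a member of the LRAT domain family.

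The daily course often differed by cell type. Uap1l1 swung in alpha cells, and Mpp2 and Scnn1b swung in beta cells, while Spon2 and Fam84a swung in both. In the other cell type Uap1l1, Mpp2 and Scnn1b had a fitted swing of at most 1.23-fold. Time of day still took up 79.5% of the variance of Uap1l1 in beta cells. In alpha cells it took up 73.35% of that of Scnn1b and 33.2% of that of Mpp2. As a fold, Uap1l1, Mpp2 and Spon2 moved most in the cell type where they were lower, and Scnn1b where it was higher. In RPKM the time means of Spon2 spanned more in alpha cells, 23.8 to 48.5 against 3.62 to 15.6. Those of Mpp2 did too, 17.0 to 20.1 against 2.07 to 4.46, and those of Uap1l1 spanned about as much in both. For Fam84a the cell type with the larger fold turned with the log scale. Its log2 swing was 2.20 in alpha and 2.75 in beta cells as deposited, and 2.00 in alpha and 1.27 in beta cells on log2(RPKM + 1). The swing of Camta1 went with the reads of Per3, a clock gene that lies inside it on the same strand. With the reads counted for Per3 taken off, Camta1 swung 1.08-fold in alpha and 1.06-fold in beta cells. With those of Vamp3, another gene inside it, taken off as well, the swing was 1.44-fold in alpha and 1.501-fold in beta cells. The course of Camta1 itself was therefore not resolved.

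**Figure D1:**
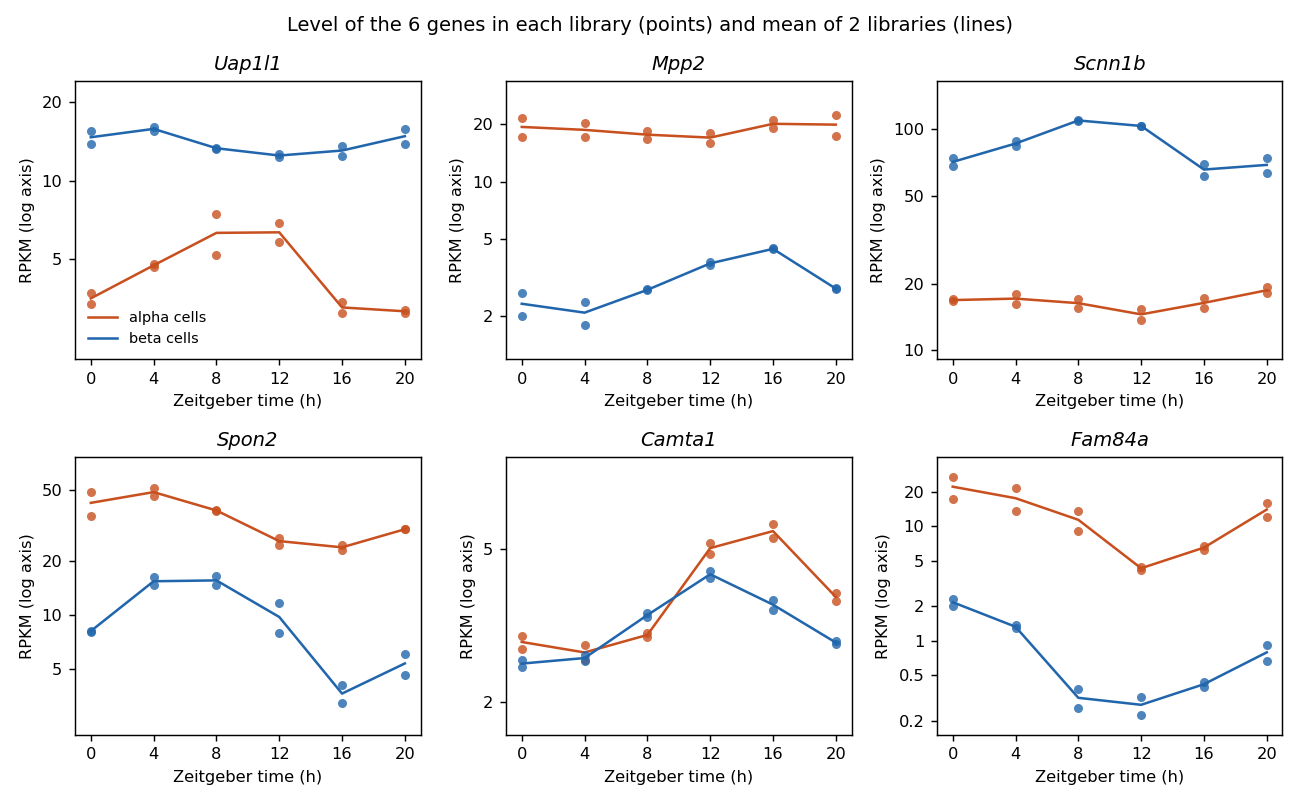
Level of the 6 genes against zeitgeber time, in RPKM on a log axis, with each library as a point and the mean of the 2 libraries of a time as a line (alpha cells orange, beta cells blue). Uap1l1 swings in alpha cells, Mpp2 and Scnn1b in beta cells, and Spon2 and Fam84a in both. The Camta1 course is that of the deposited values, which move with the reads of Per3, a gene inside it. Only the Camta1 libraries of the cell types overlap.

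The first question was how the 6 genes compared in mean level between the cell types. Levels are RPKM, reads scaled to gene length and library size, and they were compared as log2 values with limma over all 14027 genes. A call needed a Benjamini-Hochberg adjusted p under 0.05 together with a 2-fold or larger difference. Mpp2, Spon2 and Fam84a, 3 of the 6, were higher in alpha cells, where 11.2% of all genes were called in that direction. Uap1l1 and Scnn1b, 2 of the 6, were higher in beta cells, where 9.54% of all genes were. In 5 of the 6 no alpha library overlapped the range of the beta libraries, against 26.0% of all genes. With so few genes no share is read from these counts. Of all genes, 1565 were called higher in alpha cells and 1338 higher in beta cells, a split that became 690 and 912 on log2(RPKM + 1), 739 and 1016 among genes with a mean log2 RPKM over 0, and 2016 and 1131 on voom weights. In bulk RNA, fewer cells of a type and less RNA per cell cannot be told apart.

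Fam84a had the widest difference of the 6 genes, with 12.7 ± 7.06 RPKM in alpha libraries and 0.884 ± 0.716 RPKM in beta libraries (mean ± SD over 12 libraries each; the SD includes the time of day). Its log2 difference, alpha minus beta, was 3.90 (SE 0.15), a 14.9-fold higher level in alpha cells (limma adjusted p = 1.08e-16). Mpp2 averaged 18.8 ± 2.07 RPKM in alpha libraries and 3.01 ± 0.89 RPKM in beta libraries (SD, n = 12 each), 6.36-fold higher in alpha cells (log2 difference 2.67, SE 0.10, limma adjusted p = 1.61e-16). Spon2 averaged 34.8 ± 9.82 RPKM in alpha libraries and 9.63 ± 4.88 RPKM in beta libraries (SD, n = 12 each), 3.96-fold higher in alpha cells (log2 difference 1.98, SE 0.13, limma adjusted p = 1.04e-11). These 3 genes kept their direction at all 6 times.

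Scnn1b averaged 16.7 ± 1.49 RPKM in alpha libraries and 83.8 ± 18.1 RPKM in beta libraries (SD, n = 12 each). Its log2 difference was -2.30 (SE 0.09, limma adjusted p = 1.41e-16), 4.92-fold higher in beta cells. Uap1l1 averaged 4.57 ± 1.51 RPKM in alpha libraries and 14.0 ± 1.35 RPKM in beta libraries (SD, n = 12 each), with a log2 difference of -1.66 (SE 0.11, limma adjusted p = 6.1e-12), 3.17-fold higher in beta cells. Camta1 averaged 3.81 ± 1.17 RPKM in alpha libraries and 3.20 ± 0.65 RPKM in beta libraries (SD, n = 12 each). Its log2 difference of 0.22 (SE 0.07, limma adjusted p = 0.00697) was below the fold threshold. It was -0.05 (adjusted p = 0.429) once the reads of Per3 were taken off, and 0.46 (adjusted p = 0.000491) once those of Vamp3, a further gene inside it, were taken off too.

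Among themselves, per gene length, Spon2 stood highest in alpha cells. Mpp2 and Scnn1b followed with ranges of 16.02 to 22.4 RPKM and 13.7 to 19.3 RPKM that overlapped. Fam84a, at 4.18 to 27.0 RPKM over its 12 alpha libraries, crossed both of them within the day. In beta cells Scnn1b stood highest, its lowest library at 61.2 RPKM lying above the highest library of any other of the 6 genes, 16.5 RPKM for Spon2.

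Uap1l1 (ENSMUSG00000026956) lies at chr2:25359889-25365682 on the minus strand (mm10, positions from the GENCODE annotation, protein-coding). In alpha cells its libraries had 3.73 and 3.37 RPKM at ZT0, 4.69 and 4.80 at ZT4, 7.44 and 5.19 at ZT8, 5.82 and 6.87 at ZT12, 3.42 and 3.13 at ZT16, and 3.12 and 3.21 at ZT20. Its beta libraries had 13.7 and 15.5 RPKM at ZT0, 15.5 and 15.99 at ZT4, 13.4 and 13.2 at ZT8, 12.3 and 12.7 at ZT12, 13.6 and 12.5 at ZT16, and 13.8 and 15.7 at ZT20. The alpha libraries of ZT8 and ZT12 were all above those of ZT0, ZT16 and ZT20, whereas the beta libraries stayed within 12.3 to 15.99 RPKM all day. The highest alpha time mean was 6.34 RPKM at ZT12, 2.00-fold the lowest, 3.17 RPKM at ZT20. In beta cells the highest time mean was 1.26-fold the lowest.

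A 24 h cosine put the Uap1l1 swing, from trough to peak, at 2.15-fold in alpha cells with a peak at ZT8.6 ± 0.45 h, and at 1.23-fold in beta cells with a peak at ZT0.92 ± 1.64 h (± SE of the fit). The cosine took up 83.1% of the variance of the alpha log2 values and 66.2% of that of the beta values. The lead of beta cells thus varied with the hour: the level was 1.96-fold higher in beta cells at ZT12 and 4.66-fold higher at ZT20, with no overlap of libraries at any time. The 2 alpha libraries of ZT8 differed by 1.43-fold, the widest gap between replicates for this gene, and the lower of them was replicate 2, the library with the highest immediate early gene sum. Without that library the log2 swing in alpha cells was 1.24, against 1.11 with it. With each library left out in turn, this swing ran between 1.01 and 1.24. If all insulin RNA in alpha libraries came from beta cells, such cells would account for at most 6.79% of the Uap1l1 level of an alpha library.

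The relatives of Uap1l1, 13 genes that make, salvage or use UDP-N-acetylglucosamine, differed less between the cell types. Of the 12 measured, 1 was higher in beta cells (9.54% of all genes) and 0 in alpha cells (11.2%) by limma, also at an unadjusted p under 0.05. Gne, the first enzyme of sialic acid synthesis, was the 1, at 6.47 RPKM in alpha libraries and 13.1 RPKM in beta libraries, and its log2 difference of -1.0015 lay on the fold threshold and fell short of it in 13 of the 24 leave-one-out fits. The median log2 difference of the list was -0.48, against 0.01 over all genes. Rhythm was tested by limma as an F-test over both cosine terms within each cell type, at an adjusted p under 0.05, which 9.66% of all genes passed in alpha cells and 16% in beta cells.

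On that test 3 of the 12 were rhythmic in alpha cells. Amdhd2, which removes the acetyl group of N-acetylglucosamine 6-phosphate, swung 1.78-fold with a peak at ZT8.17 (adjusted p = 0.0131). Nagk, the N-acetylglucosamine kinase of the salvage route, swung 1.49-fold with a peak at ZT8.5 (adjusted p = 0.0165). Both peaks lay close to that of Uap1l1 in alpha cells, ZT8.6. Ogt, the transferase that puts the sugar on proteins, was rhythmic in both cell types, 1.71-fold with a peak at ZT18.2 in alpha cells (adjusted p = 0.027) and 1.93-fold with a peak at ZT19.5 in beta cells (adjusted p = 0.00529). Uap1 itself was rhythmic in beta cells, 1.46-fold with a peak at ZT18.6 (adjusted p = 0.0206), as was Gne, and 4 of the 12 passed in beta cells in all. Without replicate 1 of the ZT8 alpha cells the adjusted p was 0.06 for Amdhd2 and 0.082 for Nagk. Ogt lost its alpha call without replicate 1 of ZT8 or ZT20, replicate 2 of ZT4 or either replicate of ZT16. Uap1 and Gne lost theirs without replicate 2 of the ZT4 beta cells or either replicate of ZT16, while Ogt in beta cells was called in all 24 leave-one-out fits. On voom weights 1 of the 12 was rhythmic in alpha cells, Ogt, with an adjusted p of 0.0594 for Amdhd2 and 0.0537 for Nagk, and 7 were rhythmic in beta cells. With time as a factor of 6 levels in place of the cosine, Ogt had an adjusted p of 0.202 in alpha cells and 0.0795 in beta cells.

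Mpp2 (ENSMUSG00000017314) lies at chr11:102057015-102088515 on the minus strand (mm10). In alpha cells its libraries had 21.5 and 17.2 RPKM at ZT0, 17.2 and 20.2 at ZT4, 18.5 and 16.8 at ZT8, 16.02 and 18.0 at ZT12, 21.1 and 19.1 at ZT16, and 22.4 and 17.4 at ZT20. The values in beta cells were 2.00 and 2.61 RPKM at ZT0, 2.37 and 1.78 at ZT4, 2.75 and 2.71 at ZT8, 3.69 and 3.81 at ZT12, 4.48 and 4.44 at ZT16, and 2.79 and 2.74 at ZT20. All 4 beta libraries of ZT12 and ZT16 were above the other 8, whereas the alpha libraries of most times overlapped one another. The highest time mean was at ZT16 in both cell types, 20.1 RPKM or 1.18-fold the lowest in alpha cells, and 4.46 RPKM or 2.15-fold the lowest in beta cells.

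The fitted swing of Mpp2 was 1.16-fold in alpha cells, with a peak at ZT20.8 ± 2.39 h, and 2.08-fold in beta cells, with a peak at ZT14.5 ± 0.47 h. Time of day took up 33.2% of the variance of its log2 values in alpha cells and 91.9% in beta cells. The fold of alpha over beta cells accordingly was 9.01 at ZT4 and 4.498 at ZT16. The beta level rested on 78 to 226 reads per library. At most 12.01% of the beta level, in replicate 1 of ZT4, and at most 2.2% in any other beta library would come from alpha cells if all Gcg RNA there did.

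Next to Mpp2, 11415 bases away on the same strand, lies Ppy, the gene of pancreatic polypeptide. Ppy had 27972 ± 7042 RPKM in alpha libraries and 355 ± 290 RPKM in beta libraries (SD, n = 12 each). Over the 12 libraries its log2 values had r = -0.28 with Mpp2 in alpha cells and r = -0.25 in beta cells. On the other side lies Mpp3, a MAGUK gene of the same family, with the opposite cell preference. Mpp3 had 0.354 ± 0.092 RPKM in alpha libraries and 3.01 ± 0.68 RPKM in beta libraries (log2 difference -3.02, SE 0.14, limma adjusted p = 5.3e-15).

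The list of MAGUK scaffolds and their Lin7 partners had 21 entries in the table for 20 symbols, Magi2 being present as 2 entries. Of the 21, 3 were higher in alpha cells (11.2% of all genes) and 3 higher in beta cells (9.54%) by limma, with a median log2 difference of 0.04. Magi3, a junction scaffold, had 4.83 RPKM in alpha libraries and 0.832 RPKM in beta libraries. Dlg2, a synaptic scaffold also known as PSD-93, had 0.953 RPKM in alpha libraries and 0.143 RPKM in beta libraries. Lin7a, at 0.266 RPKM in alpha libraries and 0.079 RPKM in beta libraries, was the third. On log2(RPKM + 1) the log2 difference was 0.77 for Dlg2 and 0.23 for Lin7a, and both calls ended. Those higher in beta cells were Mpp3, Mpp6 (2.24 RPKM in alpha libraries and 8.21 RPKM in beta libraries) and Dlg3 (3.98 RPKM in alpha libraries and 11.5 RPKM in beta libraries). Rhythm passed the test for 0 of the 21 in alpha cells and for 1 in beta cells, Dlg2, at 2.39-fold with a peak at ZT6.21 (limma adjusted p = 0.0185, and up to 0.0644 without replicate 2 of the beta cells of ZT16 or ZT20). Over all genes 9.66% passed in alpha cells and 16% in beta cells. At an unadjusted p under 0.05 the counts were 5 in alpha cells and 9 in beta cells, against 4173 and 4812 of all 14027 genes. On log2(RPKM + 1) limma gave 1 rhythmic gene in alpha cells, Dlg2 (adjusted p = 0.0488), and on voom weights 0. The beta call of Dlg2 ended on log2(RPKM + 1) (adjusted p = 0.317), on voom weights (0.0925) and with time as 6 levels (0.163), and at a mean log2 RPKM over 0 the gene was not tested. In beta cells Mpp3 passed on log2(RPKM + 1) (adjusted p = 0.0152) and on voom weights (0.032).

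The RefSeq table (GRCm38.p6, the assembly that mm10 names) held 2 promoters of Mpp2. A search of both strands for the E-box CACGTG, its variant CACGTT, the D-box TTATGTAA or TTACGTAA, and the RORE core AGGTCA found 1 match in each. The first promoter held CACGTT at position -179 from the start, which 4.69% of 32817 promoters of the same length held. The second held AGGTCA on the reverse strand at position -211, which 16.3% of promoters held. A match describes letters and is no binding site. The first promoter is shown because this was the 1 match to an E-box letter string among the promoters searched, with CACGTT in capitals (chr11:102088466-102088765, minus strand).

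Mpp2 promoter 1: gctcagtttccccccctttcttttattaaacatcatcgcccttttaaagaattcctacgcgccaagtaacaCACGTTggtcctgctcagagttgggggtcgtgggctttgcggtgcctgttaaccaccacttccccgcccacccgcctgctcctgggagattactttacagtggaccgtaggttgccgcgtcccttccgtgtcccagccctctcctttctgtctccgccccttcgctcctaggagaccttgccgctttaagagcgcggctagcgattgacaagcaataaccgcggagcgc

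Scnn1b (ENSMUSG00000030873) lies at chr7:121865038-121918514 on the plus strand (mm10). ENaC is built from an alpha, a beta and a gamma subunit, which are the products of Scnn1a, Scnn1b and Scnn1g. It carries sodium into cells of the kidney collecting duct and the airway. In alpha cells the Scnn1b libraries had 17.1 and 16.7 RPKM at ZT0, 18.0 and 16.3 at ZT4, 15.6 and 17.1 at ZT8, 13.7 and 15.4 at ZT12, 15.5 and 17.3 at ZT16, and 19.3 and 18.1 at ZT20. In beta cells they had 74.0 and 67.8 RPKM at ZT0, 83.5 and 88.1 at ZT4, 109.5 and 109 at ZT8, 103 and 103 at ZT12, 69.7 and 61.2 at ZT16, and 74.1 and 63.3 at ZT20. All 4 beta libraries of ZT8 and ZT12 were above the other 8, while the alpha libraries stayed within 13.7 to 19.3 RPKM.

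The highest time mean of Scnn1b was 18.7 RPKM at ZT20 in alpha cells, 1.29-fold the lowest, and 109 RPKM at ZT8 in beta cells, 1.67-fold the lowest. The fitted swing was 1.18-fold in alpha cells, with a peak at ZT22.8 ± 1.71 h, and 1.70-fold in beta cells, with a peak at ZT8.43 ± 0.54 h. In alpha cells ZT12 was thus the lowest time and in beta cells the second highest, and the lead of beta cells was 7.08-fold at ZT12 and 3.68-fold at ZT20. The beta values rest on 1412 to 2735 reads per library, the deepest coverage among the 6 genes in that cell type. If all insulin RNA in alpha libraries came from beta cells, they would account for at most 9.64% of the Scnn1b level of an alpha library. The gene Cog7 overlaps Scnn1b on the opposite strand. It had 22.1 RPKM in alpha libraries and 31.2 RPKM in beta libraries, with r = -0.39 to Scnn1b in alpha cells and r = -0.41 in beta cells over 12 libraries.

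The gamma subunit gene Scnn1g lies 96563 bases before Scnn1b on the same strand and followed the same course in beta cells. In alpha cells Scnn1g libraries had 0.791 and 0.783 RPKM at ZT0, 0.979 and 1.20 at ZT4, 0.961 and 1.04 at ZT8, 0.690 and 0.948 at ZT12, 0.968 and 0.609 at ZT16, and 0.681 and 1.01 at ZT20. Its beta libraries had 3.68 and 3.26 RPKM at ZT0, 5.99 and 5.64 at ZT4, 7.51 and 7.65 at ZT8, 7.65 and 8.46 at ZT12, 4.08 and 4.25 at ZT16, and 3.17 and 4.33 at ZT20. The highest beta libraries were again those of ZT8 and ZT12. Scnn1g averaged 0.889 ± 0.175 RPKM in alpha libraries and 5.47 ± 1.93 RPKM in beta libraries (SD, n = 12 each), a log2 difference of -2.48 (SE 0.12, limma adjusted p = 1.44e-14). It was rhythmic in beta cells, 2.47-fold with a peak at ZT9.25 (limma adjusted p = 0.000372, and at most 0.00157 without any 1 library), and the test was not passed in alpha cells (1.33-fold, adjusted p = 0.255), where it had 15 to 39 reads per library. Over the 12 libraries of a cell type, which share depth and time, its log2 values had r = -0.04 with Scnn1b in alpha cells and r = 0.88 in beta cells. Scnn1a, the alpha subunit gene, stood at 0.254 RPKM in alpha libraries and 0.203 RPKM in beta libraries.

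**Figure D2:**
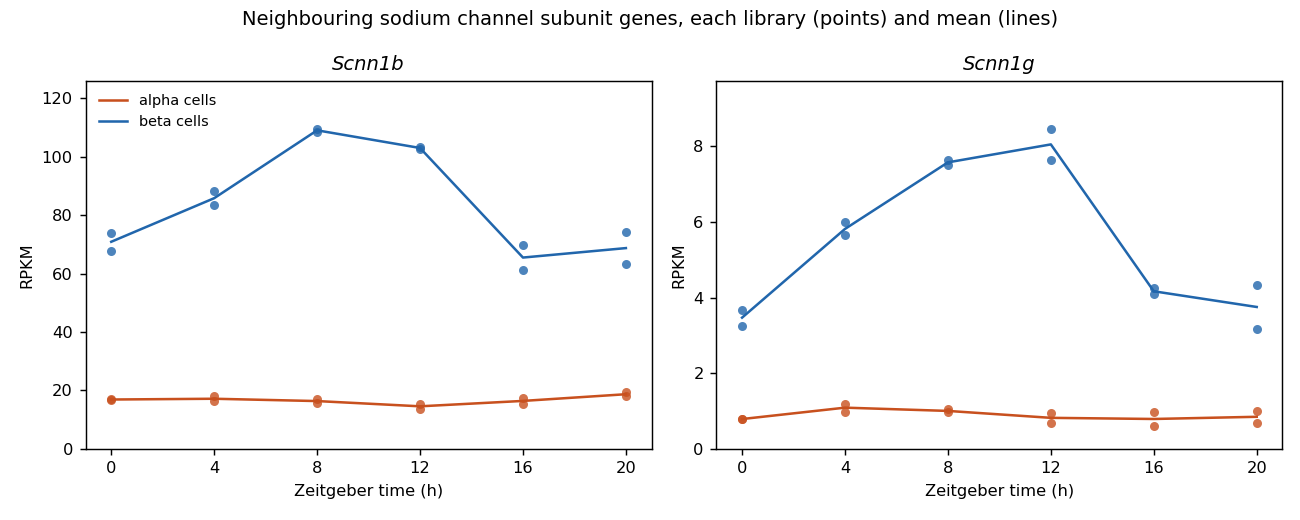
Level of the neighbouring genes Scnn1b and Scnn1g against zeitgeber time, in RPKM on linear axes that start at 0 and differ in range, with libraries as points and time means as lines (alpha cells orange, beta cells blue). Both genes are high at ZT8 and ZT12 in beta cells and swing less in alpha cells.

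Of the 20 genes on the list of ENaC, related channels and regulators, 14 were measured. By limma 1 was higher in alpha cells (11.2% of all genes) and 3 higher in beta cells (9.54%). The median log2 difference was 0.46 towards alpha cells. Cnksr3, a scaffold that in mouse kidney cells holds the ENaC regulatory complex, had 7.87 RPKM in alpha libraries and 3.07 RPKM in beta libraries. Higher in beta cells, beside Scnn1g, were Tmprss4, a membrane protease that cleaves ENaC, with 0.63 RPKM in alpha libraries and 14.2 RPKM in beta libraries, and Sgk1, the aldosterone-induced kinase, with 0.486 RPKM in alpha libraries and 1.55 RPKM in beta libraries. On log2(RPKM + 1) the call of Sgk1 ended, at -0.75. Nedd4l, the ligase that removes ENaC from the membrane, had 10.8 RPKM in alpha libraries and 5.44 RPKM in beta libraries, a 1.99-fold difference that missed the fold threshold. With voom weights 7 of the list were called in place of 4. At an unadjusted p under 0.05, 2 of the 14 were rhythmic in alpha cells, against 4173 of all 14027 genes. Rhythm passed the adjusted limma test for 0 of the 14 in alpha cells (9.66% of all genes), and for 0 on voom weights. In beta cells (16% of all genes) it passed for 2, Scnn1g and the glucocorticoid-induced gene Tsc22d3 (1.43-fold, peak at ZT12.4, adjusted p = 0.0366). Tsc22d3 lost its call, with an adjusted p of up to 0.142, without either beta replicate of ZT0 or ZT12 or replicate 2 of ZT16 or ZT20.

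The promoters of the 2 subunit genes are shown because the genes are neighbours and move together in beta cells. In that of Scnn1b (chr7:121864788-121865087, plus strand) the capitals mark TGACCT, the RORE core read on the reverse strand, at position -132. In that of Scnn1g (chr7:121734229-121734528, plus strand) none of the motifs was found, which says only that these letters are not in this window.

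Scnn1b: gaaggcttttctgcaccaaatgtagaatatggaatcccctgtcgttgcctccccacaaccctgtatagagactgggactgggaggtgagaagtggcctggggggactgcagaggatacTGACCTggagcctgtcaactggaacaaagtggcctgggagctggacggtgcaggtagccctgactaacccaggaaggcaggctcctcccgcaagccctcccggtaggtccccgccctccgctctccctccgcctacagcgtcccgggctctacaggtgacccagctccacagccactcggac

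Scnn1g: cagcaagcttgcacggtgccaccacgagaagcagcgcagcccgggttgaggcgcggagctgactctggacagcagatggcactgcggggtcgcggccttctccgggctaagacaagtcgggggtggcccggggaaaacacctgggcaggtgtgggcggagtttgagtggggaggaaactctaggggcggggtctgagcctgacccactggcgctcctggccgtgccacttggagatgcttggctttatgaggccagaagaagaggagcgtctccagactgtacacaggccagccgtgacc

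Spon2 (ENSMUSG00000037379) lies at chr5:33198184-33218455 on the minus strand (mm10). In alpha cells its libraries had 48.8 and 35.7 RPKM at ZT0, 46.0 and 51.0 at ZT4, 38.6 and 38.0 at ZT8, 27.0 and 24.7 at ZT12, 23.1 and 24.5 at ZT16, and 30.1 and 30.04 at ZT20. The values in beta cells were 8.16 and 8.05 RPKM at ZT0, 14.6 and 16.2 at ZT4, 14.7 and 16.5 at ZT8, 7.87 and 11.6 at ZT12, 4.05 and 3.20 at ZT16, and 6.05 and 4.63 at ZT20. All 6 alpha libraries from ZT0 to ZT8 were above the other 6. In beta cells the 4 libraries of ZT4 and ZT8 were above all others, those of ZT0 were already in the middle of the range, and the 2 of ZT16 were the lowest.

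The highest time mean of Spon2 was 48.5 RPKM at ZT4 in alpha cells, 2.04-fold the lowest, and 15.6 RPKM at ZT8 in beta cells, 4.30-fold the lowest, with ZT16 the lowest time in both. The fitted swing was 2.07-fold in alpha and 4.23-fold in beta cells. Its peak came at ZT3.27 ± 0.60 h in alpha cells and at ZT5.96 ± 0.30 h in beta cells. The lead of alpha cells was 2.46-fold at ZT8 and 6.57-fold at ZT16. At most 5.05% of the beta level in a library would come from alpha cells if all Gcg RNA there did, again in replicate 1 of ZT4.

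Of the 17 spondins, thrombospondins and their integrin receptors, 8 were measured. By limma 3 were higher in alpha cells (11.2% of all genes) and 2 higher in beta cells (9.54%). The median log2 difference of the 8 was 0.79. Thbs1, a secreted thrombospondin, had 2.88 RPKM in alpha libraries and 0.461 RPKM in beta libraries, and Thbs3 had 12.7 RPKM in alpha libraries and 3.74 RPKM in beta libraries. The integrin gene Itgb3 had 0.679 RPKM in alpha libraries and 0.113 RPKM in beta libraries, a call that ended on log2(RPKM + 1), at 0.58. Itgav, which encodes a partner of that integrin subunit, was higher in beta cells, with 10.01 RPKM in alpha libraries and 25.4 RPKM in beta libraries. Rspo4, a Wnt-enhancing R-spondin, was higher in beta cells too, with 0.813 RPKM in alpha libraries and 5.20 RPKM in beta libraries.

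Rhythm passed the test for 3 of these 8 genes in alpha cells (9.66% of all genes) and 2 in beta cells (16%). In alpha cells they were Rspo4 (4.26-fold, peak at ZT21.2, adjusted p = 0.00342), Itgb3 (2.41-fold, peak at ZT5.84, adjusted p = 0.0315) and Itgb1 (1.35-fold, peak at ZT5.85, adjusted p = 0.0391). In beta cells Thbs1 swung 3.07-fold with a peak at ZT6.25 (adjusted p = 0.0184) and Itgav 1.64-fold with a peak at ZT3.99 (adjusted p = 0.0151). The Thbs1 peak lay close to that of Spon2 in beta cells. Of these calls that of Rspo4 held in all 24 leave-one-out fits. Itgb3 lost its call without either alpha replicate of ZT8 or ZT16 or replicate 2 of ZT4, Itgb1 without any of 8 alpha libraries from ZT4 to ZT20, and Thbs1 and Itgav without replicate 2 of the beta cells of ZT4 or ZT16, Itgav also without replicate 1 of ZT16. Thbs1 also lost its beta call on log2(RPKM + 1) (adjusted p = 0.138) and on voom weights (0.0998). With time as 6 levels Rspo4 in alpha cells and Thbs1 in beta cells were called, and Itgb3, Itgb1 and Itgav were not.

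Fam84a (ENSMUSG00000020607) lies at chr12:14146830-14152054 on the minus strand (mm10). In alpha cells its libraries had 27.0 and 17.3 RPKM at ZT0, 13.5 and 21.6 at ZT4, 9.14 and 13.6 at ZT8, 4.18 and 4.42 at ZT12, 6.24 and 6.78 at ZT16, and 15.97 and 12.01 at ZT20. In beta cells they had 2.33 and 2.01 RPKM at ZT0, 1.29 and 1.36 at ZT4, 0.257 and 0.379 at ZT8, 0.326 and 0.227 at ZT12, 0.395 and 0.441 at ZT16, and 0.915 and 0.671 at ZT20. In both cell types ZT0 held the highest library and the 2 lowest alpha libraries were those of ZT12, with ZT8 and ZT12 sharing the lowest values in beta cells. These values rest on 79 to 1117 reads per alpha library and on only 8 to 73 reads per beta library.

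As deposited, Fam84a had the widest swing of the 6 genes in each cell type, 4.59-fold in alpha cells with a peak at ZT1.09 ± 0.48 h and 6.73-fold in beta cells with a peak at ZT0.29 ± 0.38 h. The beta swing depended on the scale, being 2.75 on the log2 scale as deposited, 1.27 on log2(RPKM + 1), where Spon2 swung more at 1.86, and 3.15 on voom-weighted reads. The time means ran between 22.1 RPKM at ZT0 and 4.30 RPKM at ZT12 in alpha cells, and between 2.17 RPKM at ZT0 and 0.276 RPKM at ZT12 in beta cells. Replicates of one time differed by up to 1.60-fold in alpha cells, the widest replicate gap found for any of the 6 genes. In beta replicate 1 of ZT4, 20.7% of the level would come from alpha cells if all Gcg RNA there did, and at most 3.74% in any other beta library. The lead of alpha cells was 10.2-fold at ZT0 and 35.8-fold at ZT8, where the beta libraries had 9 and 13 reads.

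Of the 5 other LRAT family genes listed, 3 were measured. By limma 2 of them were higher in alpha cells (11.2% of all genes) and 0 higher in beta cells (9.54%). These counts were the same at an unadjusted p under 0.05 with the same fold. Pla2g16, a phospholipase, had 7.45 RPKM in alpha libraries and 3.03 RPKM in beta libraries. Hrasls had 1.08 RPKM in alpha libraries and 0.377 RPKM in beta libraries, and was rhythmic in both, 4.81-fold with a peak at ZT6.63 in alpha cells (adjusted p = 0.00547) and 3.54-fold with a peak at ZT6.83 in beta cells (adjusted p = 0.0147). On log2(RPKM + 1) the log2 difference of Hrasls was 0.54 and its level call ended, as did its beta rhythm (adjusted p = 0.0519), and at a mean log2 RPKM over 0 it was not tested. Fam84b, the closest relative, had 4.55 RPKM in alpha libraries and 8.06 RPKM in beta libraries, below the fold threshold. In the RefSeq promoter of Fam84a, listed under Lratd1, none of the motifs was found.

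Camta1 (ENSMUSG00000014592) lies at chr4:150917322-151861876 on the minus strand (mm10), a span of 944555 bases. In alpha cells its libraries had 2.75 and 2.98 RPKM at ZT0, 2.82 and 2.57 at ZT4, 3.03 and 2.95 at ZT8, 5.19 and 4.86 at ZT12, 5.79 and 5.34 at ZT16, and 3.83 and 3.67 at ZT20. Its beta libraries had 2.57 and 2.46 RPKM at ZT0, 2.55 and 2.65 at ZT4, 3.33 and 3.40 at ZT8, 4.39 and 4.21 at ZT12, 3.69 and 3.48 at ZT16, and 2.88 and 2.83 at ZT20. In alpha cells the libraries of ZT12 and ZT16 were far above those of ZT0 to ZT8, with ZT20 between, and in beta cells ZT12 held the highest libraries and ZT0 and ZT4 the lowest. The fitted swing was 2.16-fold in alpha cells with a peak at ZT15.0 ± 0.36 h, and 1.69-fold in beta cells with a peak at ZT12.7 ± 0.54 h. Time of day took up 98.5% of the variance in alpha cells and 98.9% in beta cells, the highest shares among the 6 genes.

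Per3 and Vamp3 lie inside the annotated span of Camta1 on the same strand, so strand cannot separate their reads. Per3, at chr4:151003652-151044665, is a period gene of the clock, and Vamp3, at chr4:151047300-151057963, encodes a vesicle fusion protein. The gene length behind the deposited Camta1 values was 32165 bases, 17595 more than the 14570 bases of exons in the GENCODE annotation used here. Such a ratio of at least 2 was found for 2.68% of the 13802 matched genes. The lengths behind Per3 and Vamp3, 9608 and 2889 bases, were those of the annotation. The same held for only 32.2% of the 13802 matched genes, so the submitters may have used another annotation. What makes up the added Camta1 length was not tested. How the authors assigned a read that fell in more than one gene is not given in the sources used here.

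Per3 was the gene most like Camta1 among 10769 in alpha cells, with r = 0.95 on the log2 scale over 12 libraries, and it had r = 0.86 in beta cells. On reads scaled to the mean library, r was 0.99 in alpha cells and 0.96 in beta cells. Camta1 gained 0.96 reads in alpha cells and 0.88 reads in beta cells for each read of Per3. Reads of Per3 and Vamp3 together came to 80.2% to 91.9% of the Camta1 reads in alpha libraries and 80.4% to 93.2% in beta libraries.

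With the Per3 reads subtracted, an alternative chosen after seeing the data, the alpha libraries of Camta1 had 797 and 652 reads at ZT0, 650 and 682 at ZT4, 756 and 651 at ZT8, 667 and 652 at ZT12, 689 and 696 at ZT16, and 738 and 721 at ZT20. The beta libraries had 813 and 670 reads at ZT0, 624 and 766 at ZT4, 777 and 768 at ZT8, 714 and 678 at ZT12, 672 and 646 at ZT16, and 802 and 718 at ZT20. The course that was left was nearly level in both cell types. Its swing was 0.11 ± 0.11 on the log2 scale in alpha cells and 0.09 ± 0.11 in beta cells (± SE), and its cell type difference was -0.05 (SE 0.05, limma adjusted p = 0.429).

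Taking off the Vamp3 reads as well left 106 to 200 reads per alpha library and 69 to 159 per beta library. These swung 1.44-fold with a peak at ZT18.5 ± 1.57 h in alpha cells and 1.501-fold with a peak at ZT17.8 ± 1.39 h in beta cells. Their cell type difference was 0.46 on the log2 scale (SE 0.11, limma adjusted p = 0.000491), 1.38-fold higher in alpha cells and under the fold threshold. Reads of Camta1 and of the genes inside it cannot be told apart in the deposited values, and the size and hour of the Camta1 swing changed with the reads that were taken off.

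**Figure D3:**
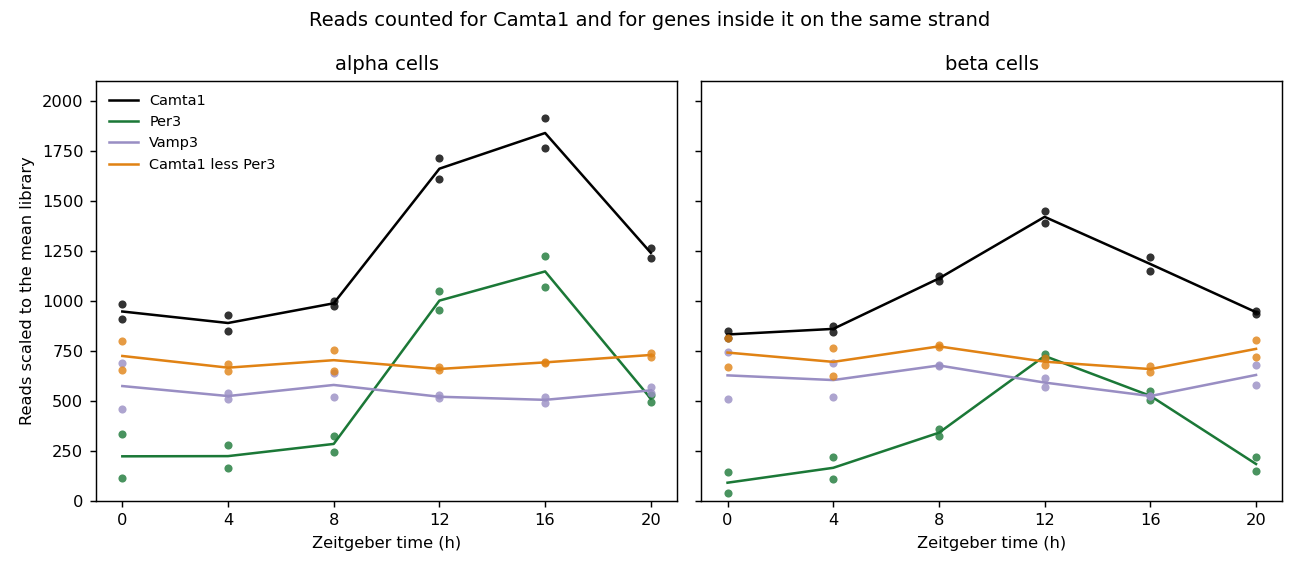
Reads per library, scaled to the mean library, against zeitgeber time for Camta1 (black), for Per3 (green) and Vamp3 (purple), and for Camta1 less Per3 (orange), with libraries as points and time means as lines, alpha cells left and beta cells right. Camta1 and Per3 run in parallel, and Camta1 less Per3 stays between 650 and 797 reads in alpha cells and between 624 and 813 reads in beta cells. Camta1 less Per3 averages 696 reads in alpha and 721 in beta cells, and Vamp3 averages 543 and 609.

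The promoters of both genes are shown because the deposited values of Camta1 move with those of Per3. In that of Per3 (chr4:151044616-151044915, minus strand) the capitals mark 2 copies of the D-box TTATGTAA, at positions -205 and -158, a motif that 1.05% of all promoters held. In that of Camta1 (chr4:151861719-151862018, minus strand) none of the motifs was found.

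Per3: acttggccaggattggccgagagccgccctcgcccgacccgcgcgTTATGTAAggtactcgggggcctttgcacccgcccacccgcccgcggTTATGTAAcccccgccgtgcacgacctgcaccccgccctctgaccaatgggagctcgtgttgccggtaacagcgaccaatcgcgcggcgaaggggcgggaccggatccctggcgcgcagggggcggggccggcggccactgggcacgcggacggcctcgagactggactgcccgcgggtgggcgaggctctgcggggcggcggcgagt

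Camta1: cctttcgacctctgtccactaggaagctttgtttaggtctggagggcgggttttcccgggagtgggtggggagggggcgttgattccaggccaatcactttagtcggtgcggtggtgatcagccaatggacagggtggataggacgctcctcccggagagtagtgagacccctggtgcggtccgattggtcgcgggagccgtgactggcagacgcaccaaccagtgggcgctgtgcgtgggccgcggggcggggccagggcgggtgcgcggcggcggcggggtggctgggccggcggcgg

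Of 18 genes of calmodulin, its kinases, calcineurin and the paralogue Camta2, 17 were measured. By limma 2 were higher in alpha cells (11.2% of all genes) and 2 higher in beta cells (9.54%). Camk4 had 0.367 RPKM in alpha libraries and 0.080 RPKM in beta libraries, and Camk2d had 3.60 RPKM in alpha libraries and 1.65 RPKM in beta libraries. Camkk2, the kinase that activates CAMK1 and CAMK4, had 2.79 RPKM in alpha libraries and 6.61 RPKM in beta libraries, and Camk1g had 1.31 RPKM in alpha libraries and 2.90 RPKM in beta libraries. On log2(RPKM + 1) 1 of these 4 calls was kept, that of Camkk2, and on voom weights that of Camk1g ended, at -0.95.

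Rhythm passed the test for 4 of these 17 genes in alpha cells (9.66% of all genes) and 5 in beta cells (16%). Camk4 swung most, 4.22-fold with a peak at ZT3.02 in alpha cells (adjusted p = 0.00564) and 3.30-fold with a peak at ZT3.49 in beta cells (adjusted p = 0.0126). Camk2b was rhythmic in both cell types as well, 1.37-fold with a peak at ZT18.5 in alpha cells and 1.30-fold with a peak at ZT18.2 in beta cells. Ppp3ca, a catalytic subunit of calcineurin, was rhythmic in beta cells (1.57-fold, peak at ZT5.43, adjusted p = 0.00475). The calls of Ppp3ca, and of Camk4 and Camk2b in alpha cells, held in all 24 leave-one-out fits. In beta cells Camk4 and Camk2b had an adjusted p of 0.0684 and 0.0508 without replicate 2 of ZT16. The other calls of this list were those of Camkk2 and Ppp3cc in alpha cells and of Calm2 and Camk1d in beta cells. Camkk2 lost its call without replicate 1 of the ZT8 alpha cells, Ppp3cc in 16 of the 24 fits, Calm2 in 15 and Camk1d in 8. Calm2 also lost it under the replicate block, for rhythm 1 shift between replicates 1 and 2 over all times (adjusted p = 0.0538). Ppp3cc (0.0718) and Camk1d (0.0517) lost theirs with libraries centred on their median, and Camk4 in beta cells on log2(RPKM + 1) (0.303). With time as 6 levels 1 of the 17 was called in each cell type, Camk2b in alpha cells and Ppp3ca in beta cells. Camta2 did not pass the test, with a 1.98-fold swing in alpha cells (adjusted p = 0.12) and a 1.99-fold swing in beta cells (adjusted p = 0.0973).

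Set on the clock, the fitted peaks of the 6 genes were spread over the day. In alpha cells the peak nearest to that of Fam84a among 19 core clock genes was that of Nfil3, at ZT1.16. Spon2 in alpha cells peaked 0.64 h after Npas2, a partner of BMAL1. Uap1l1 in alpha cells peaked 0.46 h after the fitted peak of Rora, which did not pass the rhythm test there (1.34-fold, adjusted p = 0.0671). In beta cells Scnn1b peaked 0.45 h after Nr1d1, which encodes REV-ERB alpha, and Mpp2 0.19 h after Cry2. Spon2 in beta cells peaked 0.71 h before that of Rora, which did not pass there either (1.28-fold, adjusted p = 0.103). The nearest peak to that of Camta1 was that of Per3 in both cell types, 0.23 h away in alpha cells and 0.06 h in beta cells. These gaps were of about the size of the SE of the peaks, and with 19 clock genes spread over 24 h some clock peak lies near most hours.

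**Figure D4:**
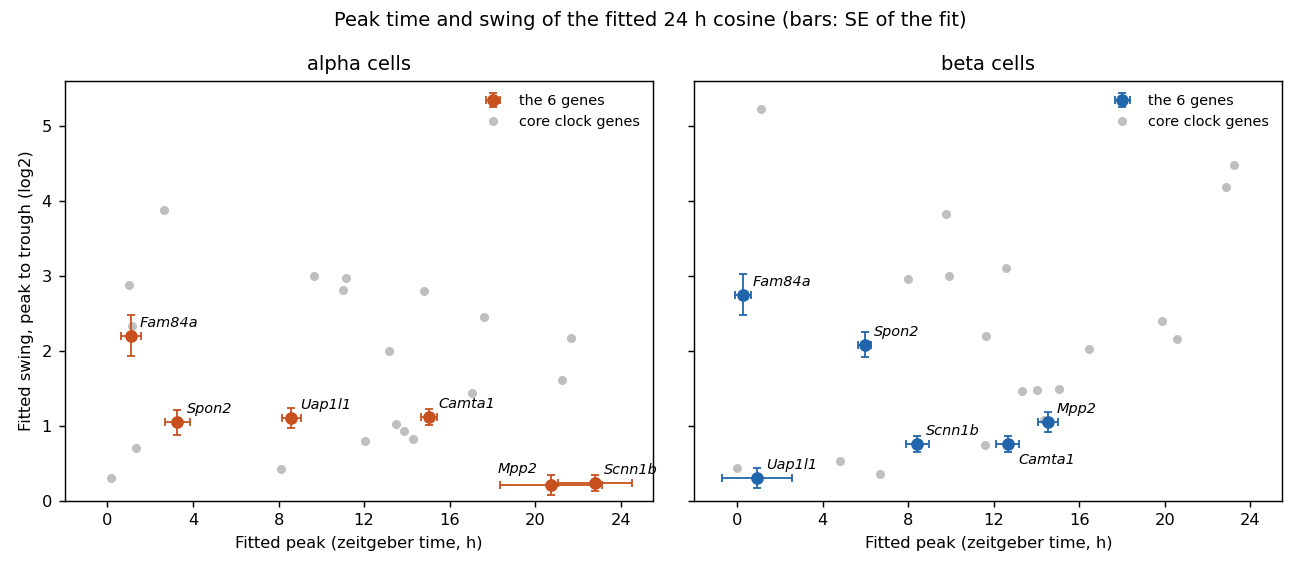
Fitted swing from trough to peak, in log2 units, against fitted peak time in zeitgeber hours, for the 6 genes (coloured, bars are the SE of the fit) and for 19 core clock genes (grey), alpha cells left and beta cells right. On this scale, that of the deposited values, Fam84a swings most of the 6 genes in both cell types, and the peaks of Mpp2 and Scnn1b in alpha cells and of Uap1l1 in beta cells have the widest bars.

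The genes most alike in course were sought over the 12 libraries of the cell type in which each gene swung more on the deposited scale, by Pearson r of log2 values, as a description. For Uap1l1 in alpha cells the 3 genes were a gene known by a clone name (r = 0.98), Aimp1, a scaffold of the tRNA synthetase complex (r = 0.98), and Hdac11, a deacetylase (r = 0.98). In beta cells the same pairs had r = -0.16, -0.19 and -0.35. For Mpp2 in beta cells they were Fbxo34, Pnmal2 and Sbk1, with r between 0.93 and 0.95, among 10543 genes compared. The order depended on the measure. By Spearman rank correlation these genes ranked 3, 30 and 81, and by Pearson r over all 24 libraries, centred by cell type, 260, 1 and 3. Fbxo34 swung only 1.25-fold in beta cells, so its likeness is one of shape and not of size.

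For Scnn1b in beta cells the 3 were the deubiquitinase gene Zranb1 (r = 0.98), Limd2 (r = 0.96) and G6pc2, the islet glucose-6-phosphatase subunit (r = 0.96), which stood at 1799 RPKM there and swung 2.08-fold with a peak at ZT8.09. For Spon2 in beta cells they were Glb1l2, the diacylglycerol kinase gene Dgke and the potassium channel gene Kcnh5, with r between 0.94 and 0.95. Over all 24 libraries, centred by cell type, these genes ranked 9, 61 and 3499. Glb1l2 swung in alpha cells too, 2.07-fold with a peak at ZT5.32, and had r = 0.72 with Spon2 there. For Fam84a in beta cells they were Scd1, a fatty acid desaturase, Ing2 and Ergic1, with r between 0.92 and 0.93. Scd1 peaked at ZT0.60 in alpha cells and at ZT0.11 in beta cells. For Camta1 in alpha cells, after Per3, they were Ttc3 and Nat15 (r = 0.90 each).

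The other measured neighbours were described likewise, 1 on each side. Dpp7, a lysosomal peptidase gene 3530 bases from Uap1l1, had r = 0.68 with it in alpha cells, where Dpp7 swung 1.21-fold, and r = 0.19 in beta cells, where Dpp7 swung 1.37-fold (limma adjusted p = 0.04998). Entpd2, an ectonucleotidase gene on the other side, did not pass the rhythm test (1.48-fold in alpha and 1.79-fold in beta cells). Gga2, a Golgi adaptor gene 68208 bases from Scnn1b, had r = -0.58 with it in alpha cells and r = -0.61 in beta cells, with a swing of at most 1.17-fold that did not pass the test. Slc5a1, the gene of the glucose transporter SGLT1 beside Spon2, was low, at 0.388 RPKM in alpha libraries and 0.266 RPKM in beta libraries, and its swings of 2.82-fold in alpha cells (adjusted p = 0.223) and 1.98-fold in beta cells (adjusted p = 0.474) did not pass. Ctbp1, a corepressor gene on the other side of Spon2, swung 1.04-fold in alpha cells against 1.01-fold in beta cells. Nbas, 563019 bases from Fam84a, was rhythmic in beta cells (1.59-fold, peak at ZT20.5, limma adjusted p = 0.00178), with r = 0.29 to Fam84a in alpha cells and r = 0.51 in beta cells. Trib2, a pseudokinase gene on its other side, did not pass the test, with 1.22-fold in alpha cells (adjusted p = 0.73) and 1.80-fold in beta cells (adjusted p = 0.083). Park7 and Dnajc11, the neighbours of Camta1, swung at most 1.17-fold in either cell type.

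Among the 6 genes themselves, Spon2 and Fam84a had r = 0.81 in alpha cells and r = 0.05 in beta cells over 12 libraries each. Scnn1b and Spon2 had r = 0.27 in alpha cells and r = 0.80 in beta cells. Mpp2 and Scnn1b, which both swung in beta cells, had r = 0.35 in alpha cells and r = -0.11 in beta cells, with beta peaks at ZT14.5 and ZT8.43.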

How the data were processed

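Per the labels' protocols, stranded libraries were made from total RNA after removal of ribosomal RNA. The submitters' processing notes name STAR, edgeR and the build mm10. No version, annotation or strand setting of the counting is given in the sources used here. The deposited values are log2 RPKM, as their steps show, with a mean prior count of 2.0. These steps gave back whole reads for each of 14027 genes and 24 libraries, with a deviation from whole numbers of at most 8.5e-08, and RPKM without the prior count was computed from them. The prior count makes a log2 difference understate the change of genes with few reads.

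The package limma 3.58.1 (R 4.3.3; trend, robust) was run on the deposited log2 values, adjusted by Benjamini-Hochberg over 14027 genes. Cell types were compared, alpha minus beta, with time as a factor of 6 levels. Rhythms were fitted as a 24 h cosine per cell type in one model. The scripts were tested on simulated reads. SDs and SEs cover the spread of these libraries only.

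The 6 genes, the lists of relatives and the rules were chosen with earlier results of these data known. Named beside the 6 genes were their 3 most alike genes, measured neighbours, nearest clock peaks and called genes of each list. The rule set up to 4 called genes of each list by lowest p, and in several lists further called genes were named beyond it. Cog7, Scnn1a, Nedd4l, Camta2, Fam84b and Vamp3 were named after their values were seen. Among the relatives of Uap1l1, 1 called gene is not reported here. Promoters came from RefSeq (GRCm38.p6), and exons and positions from GENCODE M21 of the same assembly. The promoter table matched 4 of the 6 genes, all but Uap1l1 and Spon2.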

Additional observations from a re-analysis of the deposited data

How the results depend on the processing

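The cell type difference of Uap1l1, Mpp2, Scnn1b, Spon2 and Fam84a kept its direction and its call under log2(RPKM + 1), log2(RPKM + 0.1), a minimum mean log2 RPKM of 0, libraries centred on their median, voom weights, the replicate block and without each of the 24 libraries in turn, with adjusted p of at most 4.54e-08. Camta1 was at -0.048 without the Per3 reads (adjusted p = 0.429), so that its sign was not resolved there, and at 0.46 (adjusted p = 0.000491) without those of Per3 and Vamp3; the cause was not tested. Over the whole table, the 1565 genes higher in alpha and 1338 higher in beta cells became 690 and 912 on log2(RPKM + 1), 739 and 1016 with that minimum, and 2016 and 1131 on voom weights of the recovered reads; the cause was not tested. With time as 6 levels in place of a cosine, 531 genes were rhythmic in alpha cells against 1355, and 1212 in beta cells against 2241. Without 1 library at a time the alpha count ran between 348 (without replicate 1 of ZT8) and 2252 (without replicate 1 of ZT4) and the beta count between 1077 (without replicate 2 of ZT16) and 3100. Leaving out 8 alpha libraries moved the alpha count by over 1.5 times, as did 4 beta libraries for the beta count, so the shares of rhythmic genes set beside the lists are loose. Same-numbered alpha and beta libraries deviated together with correlations of 0.704 at ZT0, 0.52 at ZT4, 0.448 at ZT8, 0.153 at ZT12, 0.151 at ZT16 and 0.0246 at ZT20, which lay over 0.1 at 5 of the 6 times. The labels tie no number to an animal or day, so the main fits did not take the numbers as pairs. Same-numbered alpha and beta libraries may therefore not be independent, above all at ZT0, ZT4 and ZT8. Replicates differed most at ZT0 and ZT4. Their chi-square per gene was 46.6 for beta ZT0, 36.3 for alpha ZT0, 34.7 for beta ZT4 and 28.1 for alpha ZT4. At the other times it reached at most 15.9, for beta ZT20. The cause was not tested. The highest time means of Fam84a (ZT0, both cell types) and of Spon2 (ZT4, alpha) fall on these less even times. In the level test the replicate block had 12 levels, 1 for each time and replicate number. It left 1565 and 1338 genes called between the cell types and changed no level call of the 6 genes. In the rhythm fit the block was only 1 shift between replicates 1 and 2 over all times, so it did not cover pairing within a time. That fit gave 1235 rhythmic genes in alpha and 2046 in beta cells. Depth limits Fam84a in beta cells, with 8 to 73 reads per library, and Scnn1g in alpha cells, with 15 to 39. It also limits relatives called rhythmic in beta cells, where Camk4 averaged 9.67 reads per library, Hrasls 12.1 and Dlg2 15.1.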
